A study of Mus musculus with 6 samples.

Results

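Transcripts of 8 transcription factor genes of the gut epithelium were followed in 6 RNA sequencing libraries: the caudal-type homeobox genes Cdx1 and Cdx2, the nuclear receptor genes Hnf4a and Hnf4g, the zinc finger genes Gata4 and Gata6, the ETS factor gene Elf3 and the intestine-specific homeobox gene Isx. The genes were taken by name, by matching the gene IDs of the count files to mouse symbols, and all 8 were found among the 53379 genes of the files. All 8 also passed the filter on low counts, which left 19339 genes for testing. The libraries came from adult C57BL/6 mice. Cells were sorted for bright green fluorescence from crypts of the proximal part of the small intestine. There were 3 control libraries, of genotype Lgr5-EGFP-IRES-CreERT2;Rosa-tdTomato, and 3 labelled Klf5-KO, which carried Klf5 fl/fl alleles besides. Both groups received tamoxifen on consecutive days. Cre was thus active in both groups, and only in cells that use the Lgr5 locus. The labels give no time between the last dose and the sort, and none says that recombined, tdTomato-positive cells were selected. Whether every replicate was a separate mouse is not given there either, so part of the spread behind the p-values may be technical, although each group held libraries of both sexes and so of more than 1 mouse.

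These factors hold the identity of the intestinal epithelium. Cdx2 sets intestinal against gastric fate in the mouse, and Cdx1 is its close relative with highest levels in crypts. Hnf4a and Hnf4g are paralogs that bind shared sites in the chromatin of mouse enterocytes and drive brush border and lipid genes. Gata4 and Gata6 act along the gut in overlapping ways, and Gata4 keeps genes of the ileum low in the duodenum and jejunum of the mouse. Elf3 is an epithelium-specific factor, and Isx represses genes of carotenoid uptake and cleavage. The comparison asks how transcripts of these factors differed once Klf5 was targeted in Lgr5-expressing cells.

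The libraries held 61563625 to 77666540 read counts. Klf5, the targeted gene, went against the labels: it stood at 480, 512 and 547 CPM (counts per 1e6 scaled counts of the library) in control replicates 1, 2 and 3 and at 880, 918 and 877 CPM in Klf5-KO replicates 1, 2 and 3. These counts cover the whole gene and do not tell the floxed exons from the others, so they check neither the deletion nor the labels. Directions are therefore given by label, with the controls as the reference. The stem cell markers Lgr5 and Olfm4 were high in both groups and lower in the libraries labelled Klf5-KO, Lgr5 at 141 ± 19.2 against 87.6 ± 8.17 CPM (SD, n = 3 each). Control replicate 3 stood apart in Paneth cell markers, whose summed level was 16982 CPM there, 1487 and 1746 CPM in the other controls and 7835 to 9804 CPM in the libraries labelled Klf5-KO. Control replicate 1 and Klf5-KO replicate 3 were male, with 256 and 159 counts of Xist and 11462 and 14064 summed counts of the Y-linked genes Kdm5d, Ddx3y, Uty and Eif2s3y. The others were female, with 107739 to 181501 counts of Xist and at most 4 of those Y-linked genes. Counts over the whole Y chromosome did not separate the sexes, since Gm47283 had 10323 to 28334 counts in every library.

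Of the 8 factors, 3 rose (Hnf4g, Cdx2 and Gata6) and 3 fell (Cdx1, Hnf4a and Elf3) in the libraries labelled Klf5-KO, while Gata4 and Isx did not pass the test (edgeR's quasi-likelihood test, adjusted p under 0.05). Over all genes tested, 25.8% were called, 13.3% as higher and 12.5% as lower. Values of the groups did not overlap for the same 6 genes that were called, against 43.2% of all genes tested. The median log2 fold change was 0.12 over the 8 factors and −0.01 over all genes tested. The paralogs of the Cdx and Hnf4 families moved in opposite directions within each family, and by unequal amounts.

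Levels of different genes were compared per length, as TPM (the share of a transcript per 1e6, from counts per kilobase of exon). TPM lacks the scaling used for CPM, so its values also depend on the other transcripts of a library. Cdx1 in control replicate 3, for example, was the highest of the controls in CPM (237) and the lowest in TPM (311). Elf3 was the most abundant of the 8 in the controls at 695 ± 25.5 TPM (SD, n = 3), followed by Hnf4a at 440 ± 80.0 TPM and Cdx1 at 335 ± 23.0 TPM. Cdx2 stood at 194 ± 21.3 TPM, Isx at 144 ± 28.2 TPM, Gata6 at 111 ± 6.69 TPM, Gata4 at 104 ± 17.2 TPM and Hnf4g, the least abundant, at 54.2 ± 2.60 TPM. Neighbours whose control values overlapped were Hnf4a and Cdx1, Isx and Gata6, and Gata6 and Gata4. In TPM, Hnf4g stood at the 89.5th percentile of the tested genes in the controls, and the other factors at the 95.2nd to the 99.3rd.

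The order of levels differed in the libraries labelled Klf5-KO. Elf3 remained at the top with 383 ± 22.7 TPM, followed by Cdx2 at 229 ± 9.50 TPM and Hnf4a at 220.1 ± 33.8 TPM, whose values overlapped. Isx, Hnf4g and Gata6 lay close together at 141 ± 27.9, 136 ± 19.2 and 129.6 ± 13.2 TPM, and Isx overlapped Hnf4g and Hnf4g overlapped Gata6. Gata4 stood at 108 ± 5.71 TPM. Cdx1, the third most abundant in the controls, was last of the 8 at 68.5 ± 1.45 TPM.

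**Figure D1:**
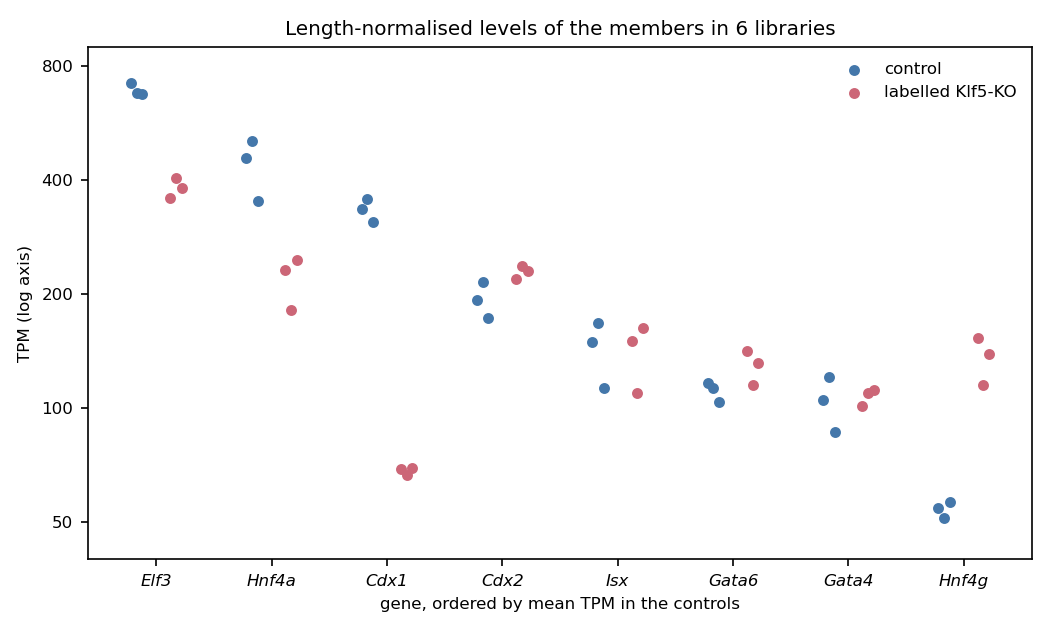
Length-normalised level (TPM, log axis) of each of the 8 factors in the 6 libraries, with genes ordered by their mean in the controls and points standing for libraries. Cdx1 drops from the third place (335 TPM) to last (68.5 TPM), and Hnf4g leaves the last place (54.2 TPM) for the middle of the set (136 TPM).

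Klf5 belongs to a family of factors that bind GC-rich and CACCC-type sites. The promoters of Cdx2, Hnf4a, Elf3 and Isx are therefore shown with the letters CCNCNCCC, searched on both strands, in capitals. Promoters of Cdx1, Hnf4g, Gata4 and Gata6 are not reported here. Each run covers 250 bases before to 50 bases after a gene start of RefSeq (build GRCm38.p6), written in the direction of the gene. The Cdx2 promoter lies at chr5:147307200-147307499 on the minus strand, that of Elf3 at chr1:135258423-135258722 on the minus strand and that of Isx at chr8:74872924-74873223 on the plus strand. Hnf4a has an upstream promoter, known as P2, at chr2:163506607-163506906, and a downstream one, known as P1, at chr2:163546905-163547204, both on the plus strand.
Cdx2: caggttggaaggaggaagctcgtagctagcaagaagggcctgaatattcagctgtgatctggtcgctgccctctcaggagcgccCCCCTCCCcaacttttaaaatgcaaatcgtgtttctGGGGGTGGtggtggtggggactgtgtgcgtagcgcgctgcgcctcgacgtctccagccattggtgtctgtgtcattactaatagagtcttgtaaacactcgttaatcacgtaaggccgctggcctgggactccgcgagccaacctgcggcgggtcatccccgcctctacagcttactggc
Hnf4a upstream: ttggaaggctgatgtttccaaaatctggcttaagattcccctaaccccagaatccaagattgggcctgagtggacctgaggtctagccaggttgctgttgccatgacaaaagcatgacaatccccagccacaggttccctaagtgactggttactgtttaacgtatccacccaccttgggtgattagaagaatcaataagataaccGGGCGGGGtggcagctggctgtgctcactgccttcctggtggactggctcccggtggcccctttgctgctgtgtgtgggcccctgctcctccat
Hnf4a downstream: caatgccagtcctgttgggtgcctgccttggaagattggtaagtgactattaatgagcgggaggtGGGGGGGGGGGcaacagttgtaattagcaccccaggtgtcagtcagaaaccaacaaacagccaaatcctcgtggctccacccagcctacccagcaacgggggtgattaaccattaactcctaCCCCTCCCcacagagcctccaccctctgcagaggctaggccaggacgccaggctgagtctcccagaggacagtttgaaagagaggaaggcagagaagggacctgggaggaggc
Elf3: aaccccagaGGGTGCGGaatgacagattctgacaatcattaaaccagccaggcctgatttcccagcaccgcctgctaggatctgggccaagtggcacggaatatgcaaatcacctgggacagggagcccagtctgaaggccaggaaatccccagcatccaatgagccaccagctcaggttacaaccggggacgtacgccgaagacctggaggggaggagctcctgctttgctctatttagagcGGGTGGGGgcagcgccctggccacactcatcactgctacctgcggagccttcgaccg
Isx: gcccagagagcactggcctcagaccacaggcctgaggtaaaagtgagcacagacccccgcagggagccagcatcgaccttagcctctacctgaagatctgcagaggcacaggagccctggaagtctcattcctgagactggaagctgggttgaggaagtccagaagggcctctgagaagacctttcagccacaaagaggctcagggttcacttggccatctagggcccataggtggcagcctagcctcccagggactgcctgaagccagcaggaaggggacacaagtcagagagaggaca
These letters matched at 2 positions in the Cdx2 promoter, 1 in the upstream and 5 (4 of them overlapping, in a run of G) in the downstream Hnf4a promoter, and 2 in the Elf3 promoter; none matched in the Isx window. They were present in 49.5% of 32851 promoters of this length, so a match is common. The letters AGATAA, read by GATA factors, occurred in the upstream Hnf4a promoter alone among these 5 windows and in 11.2% of all promoters. The letters TTTAT, the core of Cdx sites, occurred in none of the 5 windows and in 40.01% of all promoters. The gene counts sum both Hnf4a promoters and cannot tell them apart.

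Cdx1 had the largest change of the 8. The gene (chromosome 18, 61018862 to 61036199 in mm10, minus strand, 3 exon blocks) gave 211, 236 and 237 CPM across the controls, in replicate order, against 49.1, 50.5 and 50.4 CPM across those labelled Klf5-KO. The lowest control value was more than 4 times the highest value labelled Klf5-KO, and the latter 3 were close together. Cdx1 fell from 228 ± 14.6 to 49.99 ± 0.764 CPM (SD, n = 3 each), a log2 fold change of −2.19 (SE 0.08, adjusted p = 1.3e-06, edgeR), or 4.56-fold lower. In bulk libraries, fewer cells that express a gene and less RNA per cell cannot be told apart.

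Cdx2 (chromosome 5, 147300805 to 147307270, minus strand, 3 exon blocks) went the other way by a small amount. It gave 157, 184 and 171 CPM across the controls, in replicate order, against 201, 232 and 216 CPM across those labelled Klf5-KO. The groups did not overlap, but the gap between them was narrow. Cdx2 rose 1.27-fold, from 170.4 ± 13.7 to 216 ± 15.7 CPM (SD, n = 3 each), which is 0.34 on the log2 scale (SE 0.10, adjusted p = 0.027, edgeR). Leaving out control replicate 1 ended this call (adjusted p = 0.091), as did leaving out replicate 2 (0.074) or 3 (0.077) of those labelled Klf5-KO.

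Hnf4a (chromosome 2, 163506808 to 163572910, plus strand, 13 exon blocks) gave 796, 927 and 741 CPM across the controls, in replicate order, against 454, 379 and 492 CPM across those labelled Klf5-KO. All 3 controls lay well above all 3 libraries labelled Klf5-KO. Hnf4a fell from 821 ± 95.3 to 442 ± 57.7 CPM (SD, n = 3 each; log2 fold change −0.89, SE 0.13, adjusted p = 0.0015, edgeR), or 1.86-fold lower. Its antisense gene Hnf4aos, counted apart by strand and sharing no exon bases with it, was at most 1.62 CPM in any library and did not pass the test (log2 fold change 0.71, adjusted p = 0.15, edgeR).

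Hnf4g (chromosome 3, 3508030 to 3658052, plus strand, 11 exon blocks) gave 51.4, 51.1 and 64.9 CPM across the controls, in replicate order, against 164, 131 and 152 CPM across those labelled Klf5-KO. Every library labelled Klf5-KO was above every control, and control replicate 3 was the highest of the controls. Hnf4g rose from 55.8 ± 7.92 to 149 ± 16.5 CPM (SD, n = 3 each; log2 fold change 1.42, SE 0.12, adjusted p = 8.5e-05, edgeR), or 2.67-fold. It had the only rise above 2-fold among the 8 factors.

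The Gata genes differed little between the groups. Gata4 (chromosome 14, 63198922 to 63271692, minus strand, 10 exon blocks) gave 147, 179 and 148 CPM across the controls, in replicate order, against 160.4, 185 and 181 CPM across those labelled Klf5-KO. Control replicate 2 lay among the libraries labelled Klf5-KO, and the groups overlapped. Gata4 did not pass the test (log2 fold change 0.15, 95% interval −0.08 to 0.39, adjusted p = 0.31, edgeR), an interval that runs from 0.945-fold to 1.31-fold. Gata6 (chromosome 18, 11052510 to 11085635, plus strand, 7 exon blocks) gave 134, 136 and 144 CPM across the controls, in replicate order, against 183, 159 and 174 CPM across those labelled Klf5-KO. The groups did not overlap. Gata6 rose by 0.32 on the log2 scale (SE 0.09, adjusted p = 0.024, edgeR), or 1.25-fold. Leaving out replicate 1 (adjusted p = 0.078) or 2 (0.076) of the controls ended the Gata6 call, as did leaving out replicate 1 (0.085) or 3 (0.082) of those labelled Klf5-KO.

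Elf3 (chromosome 1, 135253575 to 135258568, minus strand, 9 exon blocks) gave 576, 571 and 655 CPM across the controls, in replicate order, against 324, 388 and 351 CPM across those labelled Klf5-KO. The groups were well apart. Elf3 fell from 601 ± 47.3 to 354 ± 32.2 CPM (SD, n = 3 each; log2 fold change −0.76, SE 0.11, adjusted p = 0.0012, edgeR), or 1.70-fold lower.

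Isx (chromosome 8, 74873173 to 74893506, plus strand, 4 exon blocks) gave 96.6, 114 and 88.3 CPM across the controls, in replicate order, against 109, 85.0 and 121 CPM across those labelled Klf5-KO. Both the lowest and the highest value were in libraries labelled Klf5-KO. Isx did not pass the test (log2 fold change 0.08, 95% interval −0.24 to 0.39, adjusted p = 0.72, edgeR), an interval from 0.848-fold to 1.31-fold. Counts of the 8 factors lay between 3241 and 71471 per library, so the half-width of the exact Poisson 95% interval was at most 3.46% of a count. The coefficient of variation within a group ran from 1.53% (Cdx1, libraries labelled Klf5-KO) to 17.6% (Isx, same libraries).

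**Figure D2:**
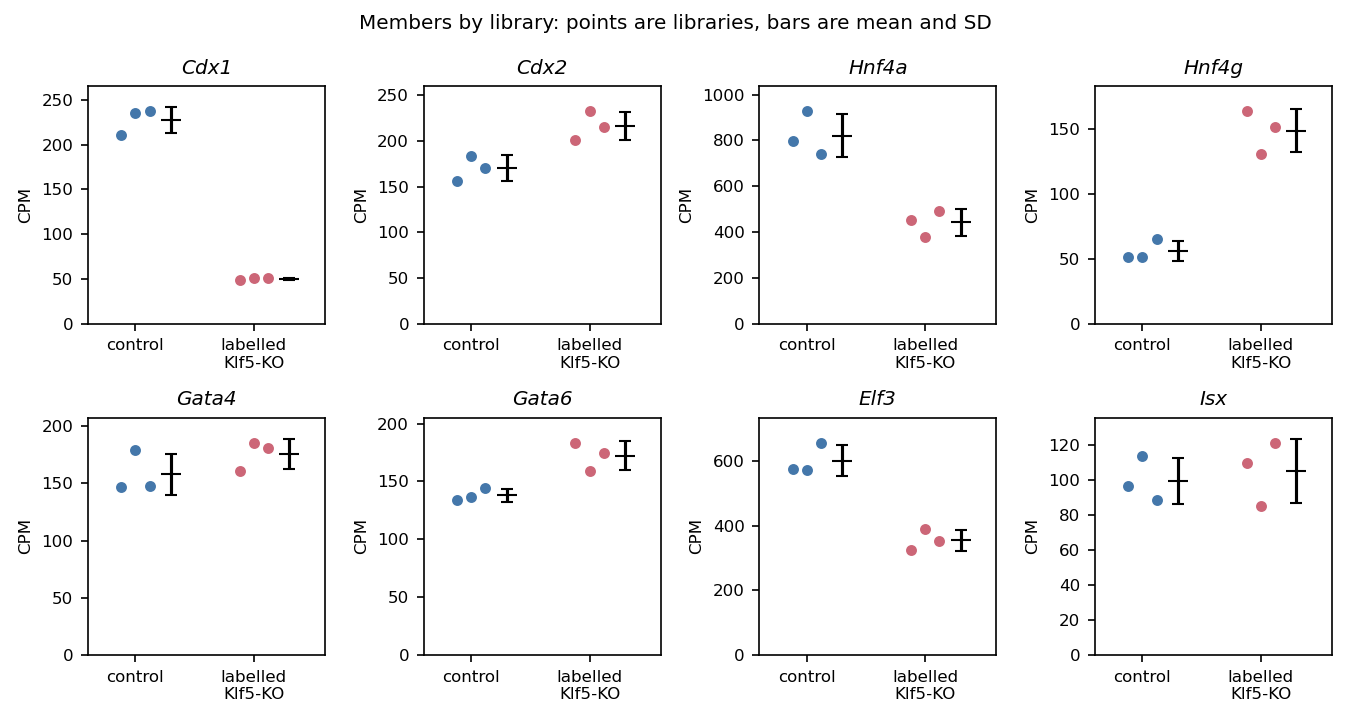
Normalised counts (CPM) of the 8 factors in 6 libraries; points are libraries in the order of their replicate numbers, bars are the mean and SD of 3. Cdx1, Hnf4a and Elf3 are lower and Hnf4g higher in the libraries labelled Klf5-KO, Cdx2 and Gata6 are higher by a narrow margin, and Gata4 and Isx overlap.

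Set side by side within each library, which needs no scaling, the Cdx paralogs changed places. Counts of Cdx1 per kilobase were 1.74, 1.65 and 1.80 times those of Cdx2 across the controls, in replicate order. Across those labelled Klf5-KO the ratio was 0.315, 0.281 and 0.302. Cdx1 was thus the more abundant transcript in every control and Cdx2 in every library labelled Klf5-KO. The log2 ratio fell by 2.53 between the group means (exact two-sided permutation test, p = 0.10, the smallest that 3 against 3 allows; 0.15 adjusted over 3 ratios). Summed over both genes, the level was 529 ± 44.2 TPM in the controls and 298 ± 8.48 TPM in the libraries labelled Klf5-KO (SD, n = 3 each; exact permutation p = 0.10). Unlike the ratio, this sum does depend on scaling, and TPM lacks the scaling used for CPM.

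Hnf4a stayed above Hnf4g in every library, by a smaller margin in those labelled Klf5-KO. The ratio of Hnf4a to Hnf4g per kilobase was 8.44, 9.88 and 6.22 across the controls, in replicate order, against 1.51, 1.58 and 1.77 across those labelled Klf5-KO. The log2 ratio fell by 2.32 (exact two-sided permutation test, p = 0.10, adjusted 0.15). Hnf4g made up 11.2 ± 2.39% of the summed TPM of both genes in the controls and 38.3 ± 1.90% in the libraries labelled Klf5-KO (SD, n = 3 each). The summed level was 494 ± 77.5 TPM against 356 ± 50.9 TPM, and every control (409 to 560.2 TPM) lay above every library labelled Klf5-KO (297 to 386 TPM). This sum in TPM also lacks the scaling used for CPM. For Gata4 over Gata6 the log2 ratio was −0.10 ± 0.18 in the controls and −0.26 ± 0.21 in the libraries labelled Klf5-KO (SD, n = 3 each). These overlapped (exact two-sided permutation p = 0.50).

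**Figure D3:**
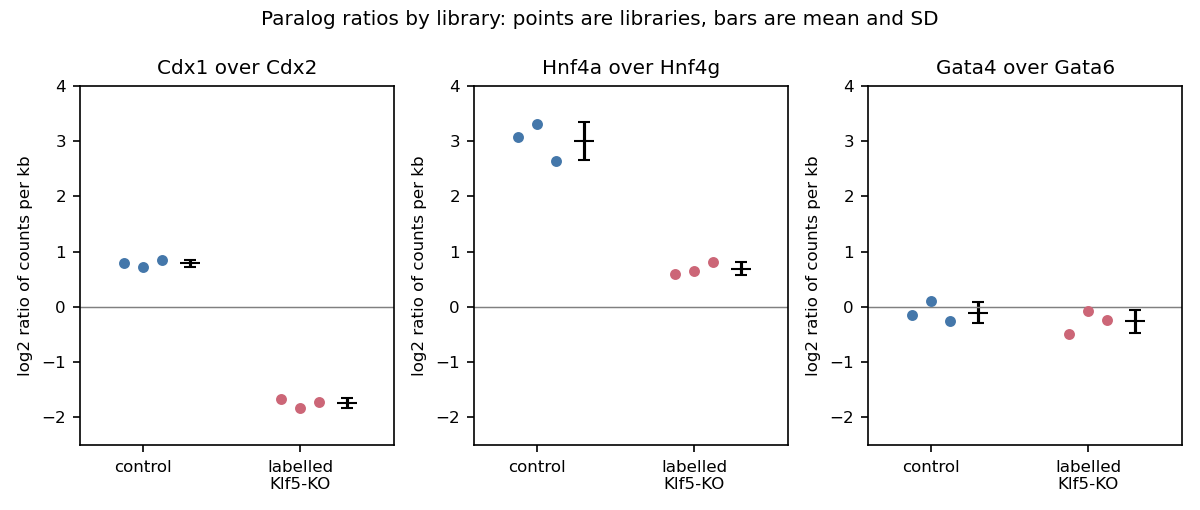
Log2 ratio of counts per kilobase between paralogs in each library (points), with mean and SD of 3 libraries (bars); the grey line marks equal levels. Cdx1 over Cdx2 crosses from above to below the line, Hnf4a over Hnf4g comes nearer to it (means 3.01 and 0.69), and Gata4 over Gata6 stays near it in both groups.

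Relatives of the 8 factors were given by a list of 19 genes, of which 15 were tested. Of these, 1 rose and 3 fell, with a median log2 fold change of −0.10. Calls in either direction made up 25.8% of all genes tested, near the share in this list. Gata5, the remaining Gata gene of the gut, fell from 69.6 ± 11.6 to 41.3 ± 7.31 CPM (SD, n = 3 each; log2 fold change −0.75, SE 0.15, adjusted p = 0.0061, edgeR), unlike Gata4 and Gata6. The forkhead genes Foxa2 and Foxa3, pioneer factors of endoderm, fell by 1.19 and 0.69 on the log2 scale, while Foxa1, at 0.14, did not pass (adjusted p = 0.23). Onecut2, once named hepatocyte nuclear factor 6 beta, rose by 0.40 (adjusted p = 0.014), and this call was lost without Klf5-KO replicate 3 (0.054). Among ETS genes related to Elf3, Ehf came to −0.33 on the log2 scale (adjusted p = 0.080) and Spdef, a goblet cell factor, to −0.77 (adjusted p = 0.055). By edgeR these did not pass, and with DESeq2 the list held 5 falls in place of 3. Elf1, Elf2 and Elf4 lay at −0.10, −0.14 and 0.16 and did not pass, nor did Gata2, Gata3 and Onecut3, all under 1 CPM on average in both groups. Cdx4, Gata1, Elf5 and Onecut1 were below the filter.

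**Figure D4:**
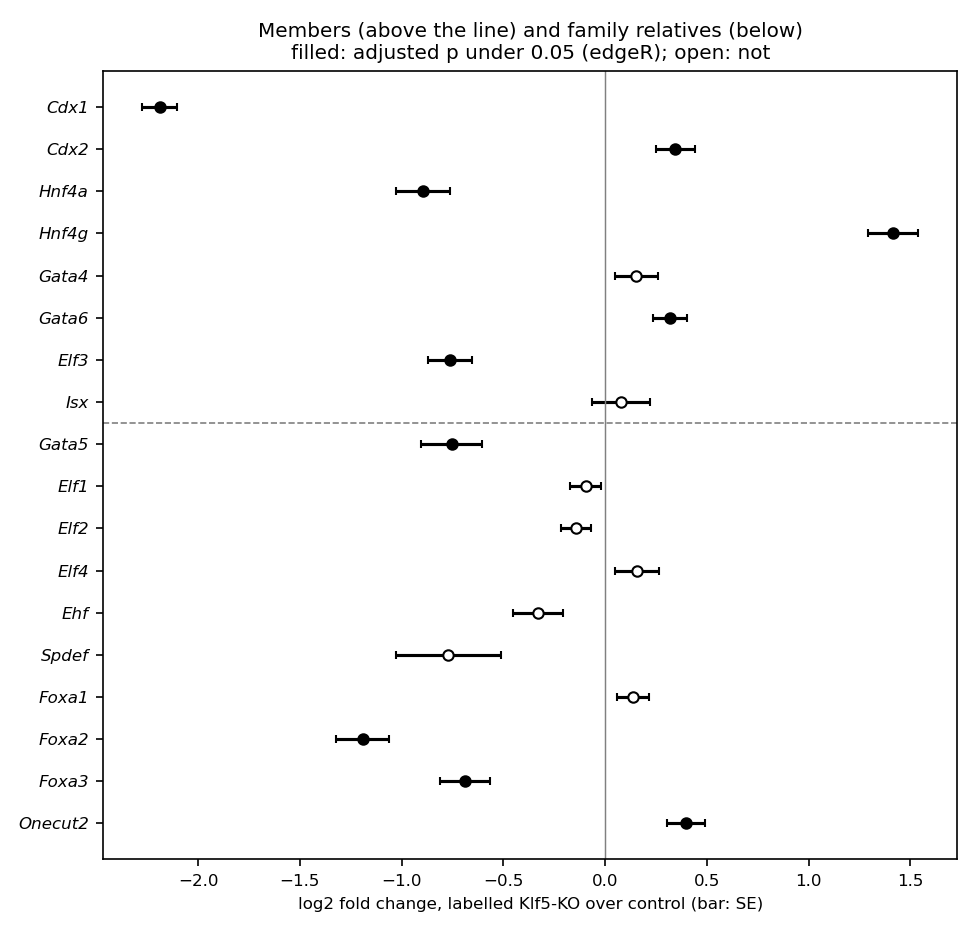
Log2 fold change (labelled Klf5-KO over control, bars are the SE of the edgeR fit) of the 8 factors above the dashed line and, below it, of the relatives named in the text that averaged 1 CPM or more in a group. Filled points passed an adjusted p of 0.05; Cdx1 (−2.19) and Hnf4g (1.42) lie farthest from 0.

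A list of 24 other transcription factors and cofactors of the gut epithelium had 23 tested genes. Of these, 9 rose, Klf5 itself among them, and 6 fell, where 13.3% and 12.5% of all genes tested did. The median log2 fold change of the list was 0.06. The smallest adjusted p-values were those of Ppargc1a, a coactivator of Hnf4a and of mitochondrial genes, which rose from 10.4 ± 2.16 to 41.7 ± 2.93 CPM, of Ascl2, a stem cell factor, which fell from 48.9 ± 8.62 to 11.4 ± 2.11 CPM, and of Nr1h4, the bile acid receptor, which rose from 18.1 ± 3.16 to 59.2 ± 6.38 CPM (SD, n = 3 each). Zfpm1, a cofactor that binds Gata proteins, did not pass (0.03 on the log2 scale, adjusted p = 0.86, edgeR).

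Genes linked to Hnf4 factors in mouse intestine were counted in a list of 23, all tested. Of these, 8 rose and 1 fell, and the median log2 fold change was 0.21. The shares over all genes tested were 13.3% higher and 12.5% lower. The lipoprotein assembly genes Mttp and Apob rose by 1.30 and 1.26 on the log2 scale, and Fabp2, a fatty acid binding protein gene, rose by 1.28. The fall was that of Myo1a, a brush border myosin gene, from 280.0 ± 17.97 to 72.5 ± 20.4 CPM (SD, n = 3 each; log2 fold change −1.95, SE 0.19, adjusted p = 1.4e-04, edgeR). Other lipid genes of the list did not pass: the apolipoprotein genes Apoa1 and Apoa4 stood at 0.19 and 1.05 on the log2 scale (adjusted p = 0.77 and 0.090), and the fatty acid oxidation or activation genes Acaa2, Hadha, Hadhb, Acadm, Acsl5 and Cpt1a between −0.25 and 0.21. Most of the genes of this list that rose, Mttp, Apob and Fabp2 among them, are also on the enterocyte marker list. The counts of these lists are therefore not separate.

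Of 13 genes linked to Cdx2, 4 rose and 1 fell, with a median of 0.25. The shares over all genes tested were 13.3% higher and 12.5% lower. Sis, the sucrase-isomaltase gene and a classic Cdx2 target, rose from 76.3 ± 19.7 to 305 ± 84.7 CPM (SD, n = 3 each), and the transporter gene Abcb1a and the ferroxidase gene Heph rose by 1.16 and 0.56 on the log2 scale. Guca2a, the guanylin gene, fell (log2 fold change −0.69, adjusted p = 0.029, edgeR). That call was lost without Klf5-KO replicate 1 (adjusted p = 0.090), 2 (0.104) or 3 (0.064), and without control replicate 3 the value was −0.40 (0.037). For Cdh17, a cadherin gene that Cdx2 activates, the log2 value was −0.22 (adjusted p = 0.21). Sis, Vil1 and further genes of this list are also on the enterocyte marker list.

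Of 4 ileal genes that Gata4 holds down in mouse jejunum, 3 were tested. Slc10a2, the ileal bile acid transporter gene, rose from 0.610 ± 0.240 to 2.63 ± 0.264 CPM (SD, n = 3 each; log2 fold change 2.10, SE 0.29, adjusted p = 0.0010, edgeR). Of the basolateral bile acid transporter, the subunit gene Slc51b rose by 1.72 and Slc51a fell by 1.22 on the log2 scale. All 3 were low, at under 6 CPM in every library. Fabp6 was below the filter. Of 2 Isx targets, Bco1, the carotene cleavage gene, did not pass (−0.38 on the log2 scale, adjusted p = 0.29) and Scarb1, a lipid uptake receptor gene, rose by 0.48 (adjusted p = 0.027). Scarb1 no longer passed when control replicate 3 (adjusted p = 0.057) or replicate 1 (0.1003) or 2 (0.071) of those labelled Klf5-KO was left out.

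Markers of cell types moved between the same groups. For comparison, 13.3% of all genes tested were called higher and 12.5% lower. Of 20 enterocyte markers, 11 rose, and their summed level was 2187 to 2638 CPM in the controls and 3617 to 5523 CPM in the libraries labelled Klf5-KO. Of 14 stem cell markers, 10 fell and 4 did not pass, and the summed level of all 14 was 9237 to 12655 CPM against 4818 to 6314 CPM. Most of the control sum was Olfm4, at 5556 to 7918 CPM there and 1540 to 2770 CPM in the libraries labelled Klf5-KO. Of 10 tuft cell markers, 6 rose (96.6 to 121 CPM against 141 to 256 CPM in sum). Of 10 enteroendocrine markers, 7 fell (161 to 322 CPM against 93.0 to 104 CPM in sum), and of 10 goblet cell markers, 3 fell and 1 rose (2420.2 to 2694 CPM against 1224 to 1559 CPM in sum). The other 6 goblet cell markers did not pass. Fcgbp was the largest part of the goblet sum, at 1146 to 1689 CPM in the controls and 419 to 645 CPM in the libraries labelled Klf5-KO. None of these lists had a marker at 0 in all libraries. The part of these shifts in the changes of the 8 factors was not tested.

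Immune, stromal, endothelial and smooth muscle cells were scarce by their markers, while Paneth cell markers were not. Of 10 immune markers 8 were tested and none was called by edgeR, with 1 at an unadjusted p under 0.05, 1 called by DESeq2 and none by limma-voom. Their summed level was 23.3 to 42.4 CPM in the controls and 28.25 to 30.4 CPM in the libraries labelled Klf5-KO. Stromal, endothelial and smooth muscle markers summed to 6.91 to 11.2 CPM and 4.21 to 5.67 CPM, with 1 rise and 2 falls among 5 tested. Of 10 Paneth cell markers none was called by edgeR, DESeq2 or limma-voom, and none had an unadjusted p under 0.05. Without control replicate 3, in which they were high, 10 were called higher by edgeR. Also without that library, the log2 fold changes of Cdx1, Hnf4a, Hnf4g and Elf3 were −2.16, −0.96, 1.54 and −0.70, all still called.

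**Figure D5:**
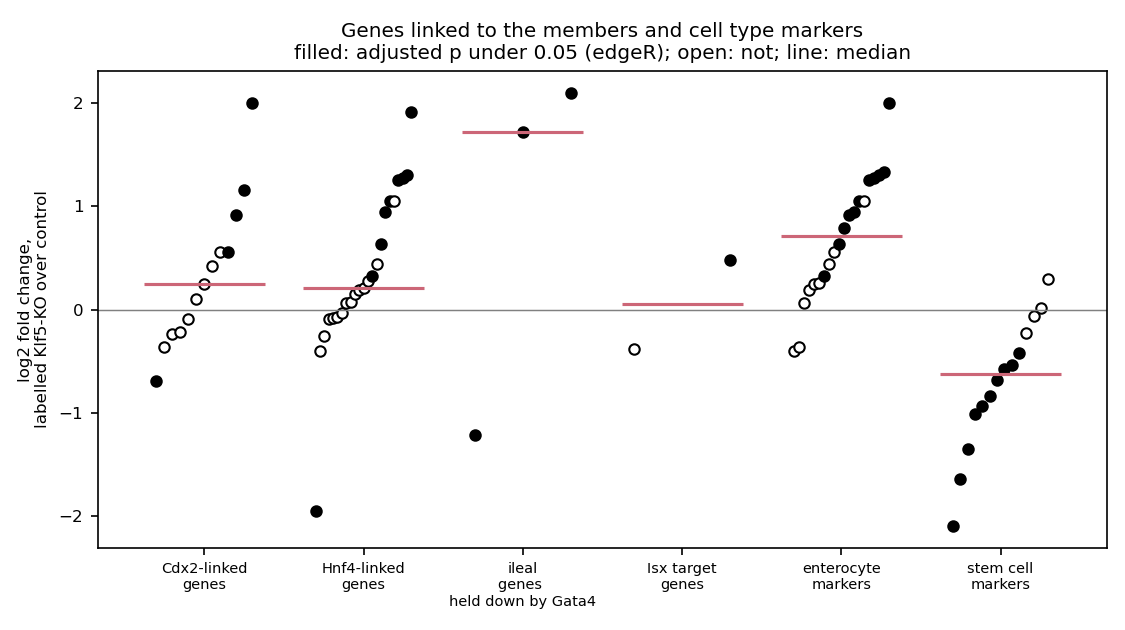
Log2 fold change (labelled Klf5-KO over control) of tested genes in the lists linked to Cdx2, Hnf4, Gata4 and Isx and in the enterocyte and stem cell marker lists; points are genes, filled where the adjusted p was under 0.05, and lines are medians. Enterocyte markers have a median of 0.71 and stem cell markers of −0.63, while the Cdx2-linked and Hnf4-linked lists have medians of 0.25 and 0.21. Both of these linked lists share genes with the enterocyte marker list.

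The genes most like each factor were sought by Pearson correlation of log2(CPM + 1) over the 6 libraries, among 10137 named genes whose mean was 5 CPM or more. With 6 libraries in 2 groups, high values are common and mostly reflect the difference between the groups. Cdx1 was most like Plch2, a phospholipase C gene (r = 0.999), which stood at 148 to 150.3 CPM in the controls and 22.0 to 23.9 CPM in the libraries labelled Klf5-KO, and Cebpa, the gene of the transcription factor C/EBP alpha (r = 0.998). Hnf4a was most like Slain1 and Bbs2, and Hnf4g was close to the amino acid transporter subunit gene Slc3a2 (r = 0.998 each). Elf3 was most like the tetraspanin gene Cd9 (r = 0.998) and Dffb (r = 0.996), and Gata6 most like Vil1, the gene of the microvillus protein villin, and the carboxylesterase gene Ces2e (r = 0.998 each). Cdx2 was most like Mrps7 and Tbc1d12 (r = 0.990 and 0.989) and Gata4 most like Fam98a and BC037034 (r = 0.968 and 0.967). Isx was most like Pofut1, a Notch fucosyltransferase gene (r = 0.990), and Anks4b, a microvillus gene (r = 0.969); like Isx, both had their highest level in Klf5-KO replicate 3.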

How the data were processed

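RNA was sequenced from 3 control and 3 Klf5-KO samples, grouped by their titles. The authors deposited raw counts of reads for each gene. STAR 2.5.2a and mm10 appear in the submitters' processing notes. Counting was done by featureCounts (1.4.3-p1) against GENCODE vM16, reverse-stranded, per the file headers, which keeps sense and antisense genes apart. The header command has no option for read pairs or multi-mapped reads.

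Symbols came from GENCODE vM21 and were found for 53274 of 53379 IDs, and coordinates were read from the count files. In R 4.3.3, edgeR 4.0.16 served for the filter (filterByExpr, 19339 genes kept), TMM scaling and a quasi-likelihood F test on group alone. Benjamini-Hochberg adjustment covered every gene kept, and calls needed an adjusted p under 0.05. The SE is the log2 fold change over the square root of F. CPM uses TMM-scaled library sizes, and TPM the exon lengths of the files. Paralog ratios were tested by exact permutation over the 20 regroupings of samples. The common biological coefficient of variation was 17.0%, and every pair of libraries differed by more than sampling noise (lowest chi-square over its degrees of freedom, 43.3). In a test on simulated counts, the fit called most of the largest changes in the right direction, with median sizes within a set tolerance. No change as small as those of Cdx2 and Gata6 was simulated. Counting intervals are exact Poisson and leave other error out. Between 13.5 and 18.3% of counts fell on Gm26917 and Gm42418, whose sequence resembles ribosomal RNA.

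The factors and gene lists were chosen with earlier results of these data known. Named genes are all 8 factors; from each list, the called genes with the 3 smallest adjusted p-values (the most abundant where none was called); detected relatives; and for each factor the 2 most similar genes. A few genes that this rule names are not reported here. Genes named beyond this (Cdh17, Apoa1, Apoa4, Acaa2, Hadha, Hadhb, Acadm, Acsl5, Cpt1a, Fabp2, Guca2a, Zfpm1, Lgr5, Olfm4, Fabp6, Bco1, Gkn3, Sox2 and Atp4b) were chosen after their values were seen. Alternatives were RLE and upper-quartile scaling, no filter or CPM above 1 in 3 libraries, DESeq2 1.42.0, limma-voom (limma 3.58.1), robust dispersion, sex as a covariate, the replicate block, removal of ribosomal RNA-like and mitochondrial genes, and leaving out each library.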

Additional observations from a re-analysis of the deposited data

How the results depend on the processing

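Cdx1, Hnf4a, Hnf4g and Elf3 were called in the same direction in all 16 alternatives, with log2 fold changes of −2.24 to −2.16, −0.98 to −0.78, 1.35 to 1.54 and −0.81 to −0.70. Cdx2 was called in 13 of 16 and Gata6 in 12 of 16; every loss came from leaving out 1 library, where their log2 fold changes ran from 0.29 to 0.40 and from 0.28 to 0.39. The number of factors called higher was 3, and 1 to 3 with a library left out (1 without control replicate 1 or Klf5-KO replicate 3); the number called lower was 3 throughout. Gata4 and Isx were called in none of the 16, and the Isx log2 fold change ran from −0.03 to 0.23 with a library left out, reversing to −0.032 without Klf5-KO replicate 3 and to −0.0019 without control replicate 3. The fits that leave out a library have fewer samples. The log2 ratio of Cdx1 over Cdx2 changed by −2.57 to −2.49, that of Hnf4a over Hnf4g by −2.5002 to −2.17 and that of Gata4 over Gata6 by −0.26 to −0.05. Over all tested genes, calls ranged from 1605 to 3127 higher and 1467 to 2664 lower; the lowest counts came without Klf5-KO replicate 1, and 3127 without a filter on low counts.

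Same-numbered libraries did not deviate together (correlations of deviations from the group means −0.01, 0.01 and −0.04), and of the controls only replicate 2 correlated best with its own number. No pairing by number was thus seen. Values this near 0 cannot tell whether same-numbered samples were handled together. With the replicate block 2286 genes were higher and 2088 lower, against 2581 and 2413 without it, and the block changed no call of the 8 factors; the ratios' differences were −2.53, −2.32 and −0.16 (exact sign-flip p = 0.25, 0.25 and 0.50, with 0.25 the smallest possible). Depth does not limit the 8 factors, whose lowest count was 3241.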

Other observations

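Genes of the stomach, which replace intestinal genes where Cdx2 is lost in the mouse, were counted in a list of 12. Of these, 4 passed the filter, 1 rose and 1 fell. Among all genes tested, 13.3% rose and 12.5% fell. Pgc, the gene of a gastric protease precursor, fell from 9.29 ± 1.18 to 3.75 ± 1.01 CPM, and Atp4a, the gastric proton pump gene, rose from 1.25 ± 0.258 to 3.19 ± 0.706 CPM (SD, n = 3 each; log2 fold changes −1.31 and 1.35, adjusted p = 0.0021 and 0.0038, edgeR). Gkn3 was the most abundant, at 38.4 ± 5.73 and 40.8 ± 6.35 CPM (adjusted p = 0.68). Sox2, the factor of foregut identity, was at most 0.175 CPM in any library, and Atp4b was listed at 0 in all 6 libraries.

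2 genes that overlap a factor on the other strand passed the test; they were chosen by position, after the values were seen. 1010001N08Rik, which shares 58 exon bases with Gata6, rose from 18.7 ± 1.14 to 33.3 ± 3.69 CPM (SD, n = 3 each; log2 fold change 0.84, SE 0.11, adjusted p = 7.2e-04, edgeR), more than Gata6 itself. Its counts were 13.1 to 13.9% of those of Gata6 in the controls and 18.3 to 20.6% in the libraries labelled Klf5-KO, and the groups did not overlap. Gm26642, which shares 162 exon bases with Elf3, fell from 1.45 ± 0.236 to 0.449 ± 0.0477 CPM (SD, n = 3 each), or by 1.69 on the log2 scale (SE 0.25, adjusted p = 0.0015, edgeR). Its counts were 0.208 to 0.261% of those of Elf3 in the controls and 0.122 to 0.134% in the libraries labelled Klf5-KO.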
